A study of Mus musculus with 12 samples.

Results

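The melanocyte pigment genes are 10 genes whose symbols were looked up in the expression table of this study, out of 34303 symbols in it. They are the melanin enzymes Tyr, Tyrp1 and Dct, the pore and transporter genes Oca2, Slc45a2 and Slc24a5, the melanosome antigen Mlana, and the regulators Mitf, Sox10 and Kit. All 10 were found and all 10 were among the 14752 genes tested. RNA sequencing had been done on whole pieces of mouse skin and of cutaneous squamous cell carcinoma (cSCC), a keratinocyte tumour raised here by chronic ultraviolet radiation. The animals were C57Bl6 and either wild-type (WT) or TAp63-/-, which lack the p63 isoforms with the N-terminal transactivation domain. WT cSCC (n = 2) and TAp63-/- cSCC (n = 4) came from mice over 35 weeks old that had received 2.5 kJ/m2 of ultraviolet radiation 3 times a week. WT skin (n = 3) and TAp63-/- skin (n = 3) was dorsal skin of untreated mice 4 weeks old, shaved before collection. Tumour and skin thus also differed in age and in exposure to ultraviolet radiation, and these cannot be told apart from the tissue.

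Melanocytes are pigment cells derived from the neural crest. In the skin of black mice such as C57Bl6 those of the trunk sit mainly in hair follicles, where they make melanin while a hair grows and pass it to the hair shaft. Melanin is made from tyrosine inside melanosomes, organelles related to lysosomes. Tyrosinase (Tyr) carries out the rate-limiting step, Dct (dopachrome tautomerase) and Tyrp1 act further along the eumelanin branch, and ion and solute transporters such as Oca2, Slc45a2 and Slc24a5 set the conditions in the organelle. The transcription factor Mitf drives most of these genes, Sox10 drives Mitf, and the receptor tyrosine kinase Kit carries the survival and migration signal of Kit ligand.

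Of the 10 genes, 7 had at least 1 promoter entry in RefSeq (GRCm38.p6, the same coordinates as mm10), and the 250 bases before each start were searched on both strands. The letters TCATGTG, or CACATGA on the other strand, are the extended E-box known as a Mitf recognition sequence in pigment gene promoters. They stood before 4 of the 7 genes, namely Tyr, Tyrp1, Dct and Slc24a5, and before 3.25% of 32851 promoter entries. A gene was counted if any of its entries matched, whereas the share is per entry, and Mitf had 3 entries and Kit 2. The matches are printed below because these 4 genes include all 3 melanin enzymes. Each runs 5′ to 3′ on the strand of the gene with the matching letters in capitals.
Tyr, chr7:87493518-87493544, minus strand: aaaaagttagTCATGTGctttgcagaa
Tyrp1, chr4:80834156-80834182, plus strand: ggggagggagTCATGTGctgcctagta
Dct, chr14:118052462-118052488, minus strand: ttggctgggaCACATGAgcccaataaa
Dct, chr14:118052381-118052407, minus strand: gcacttagggTCATGTGctaacaaaga
Slc24a5, chr2:125068104-125068126, plus strand: ggagactgctCACATGAttcagc

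The match lay 22 to 16 bases before the start in Tyr, 47 to 41 in Tyrp1 and 13 to 7 in Slc24a5. The Tyrp1 start used is RefSeq position 80834213. In the expression table the gene begins at 80834123, so the Tyrp1 match lies inside that gene span. For Tyr, on the minus strand, the RefSeq start used is 87493512. In the expression table Tyr ends at 87493411, so its match lies farther upstream of that gene span. Dct carried 2 matches, 232 to 226 and 151 to 145 bases before its start, and its upstream sequence is given whole to show both.
Dct, chr14:118052247-118052496, minus strand: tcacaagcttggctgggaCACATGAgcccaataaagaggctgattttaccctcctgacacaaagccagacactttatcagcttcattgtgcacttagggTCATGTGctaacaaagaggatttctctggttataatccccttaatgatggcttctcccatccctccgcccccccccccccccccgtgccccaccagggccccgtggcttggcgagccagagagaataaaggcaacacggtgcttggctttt

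The sister letters TCACGTG, on the other strand read as CACGTGA, occurred before 3.13% of all entries and before 0 of the 7 genes. The SOX-type letters ACAAAG, on the other strand read as CTTTGT, occurred before 16.5% of all entries and before 3 of the 7 genes, Dct, Oca2 and Tyrp1. The cyclic AMP response element TGACGTCA, its own reverse complement, occurred before 1.55% of all entries and before 1 of the 7 genes, Mitf, at the start at position 97991783 of chromosome 6. That upstream sequence is shown because Mitf fell in the tumours. A match describes these letters in this window and no binding was measured.
Mitf, chr6:97991533-97991782, plus strand: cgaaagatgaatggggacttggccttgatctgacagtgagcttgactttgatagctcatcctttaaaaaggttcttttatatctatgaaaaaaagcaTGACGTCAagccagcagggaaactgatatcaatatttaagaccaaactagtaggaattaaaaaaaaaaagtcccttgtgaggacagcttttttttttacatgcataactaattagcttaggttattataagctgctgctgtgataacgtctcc

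A few facts of the whole table bear on the values below. Levels are FPKM, fragment numbers scaled by transcript length and by library. Read depth is unknown, and in every library at least 99.98% of the sorted values from 1 FPKM upwards lay within 1% of the common distribution. Trp63 was 84.5 to 119 FPKM in skin and 97.3 to 258 in cSCC, but this value adds up all p63 isoforms and does not check the loss of TAp63. Basal keratinocyte genes, 7 in the list, had a mean log2(FPKM + 1) of 6.98 to 7.77 in skin and 7.53 to 8.25 in cSCC. The skin pieces also held muscle, at a mean of 8.89 to 9.86 over 7 genes against 2.73 to 6.03 in cSCC. By Xist and 4 Y-linked genes, 5 tumours read as female, whereas TAp63-/- cSCC replicate 1 read as male like all 6 skin libraries. Sex thus nearly coincided with tissue. In WT every tumour read as female and every skin library as male.

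In the pigment genes themselves 2 libraries stood apart. WT cSCC replicate 2 was the highest tumour for all 10 genes, and TAp63-/- skin replicate 1 was the lowest skin library for all 10. The comparisons of tumour with skin were also made without both, a setting chosen after seeing the data. Because both were picked on the levels of these same genes, larger differences and more calls without them follow from that choice and support nothing. Fewer melanocytes in a piece and less RNA per melanocyte cannot be told apart in whole tissue.

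The main comparison asked how the pigment genes differed between tumour and skin, averaged over the genotypes. The melanin enzymes, the transporters, Mlana, Mitf and Sox10 fell in cSCC, most of all Dct, Tyrp1 and Mlana at 9.47 to 10.98 times lower on the FPKM + 1 scale. Kit alone did not pass. Over all genes tested, 18.4% were lower in cSCC at an adjusted p below 0.05, and of the pigment genes 9 of 10 were. Their median log2 change was -1.69, against 0.07 over all genes tested. That count needs a reservation, because Tyr, Oca2, Slc45a2, Slc24a5 and Sox10 passed the filter on low values only through the skin libraries. Of the other 5 genes, which passed in the tumours alone as well, 4 were lower.

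**Figure D1:**
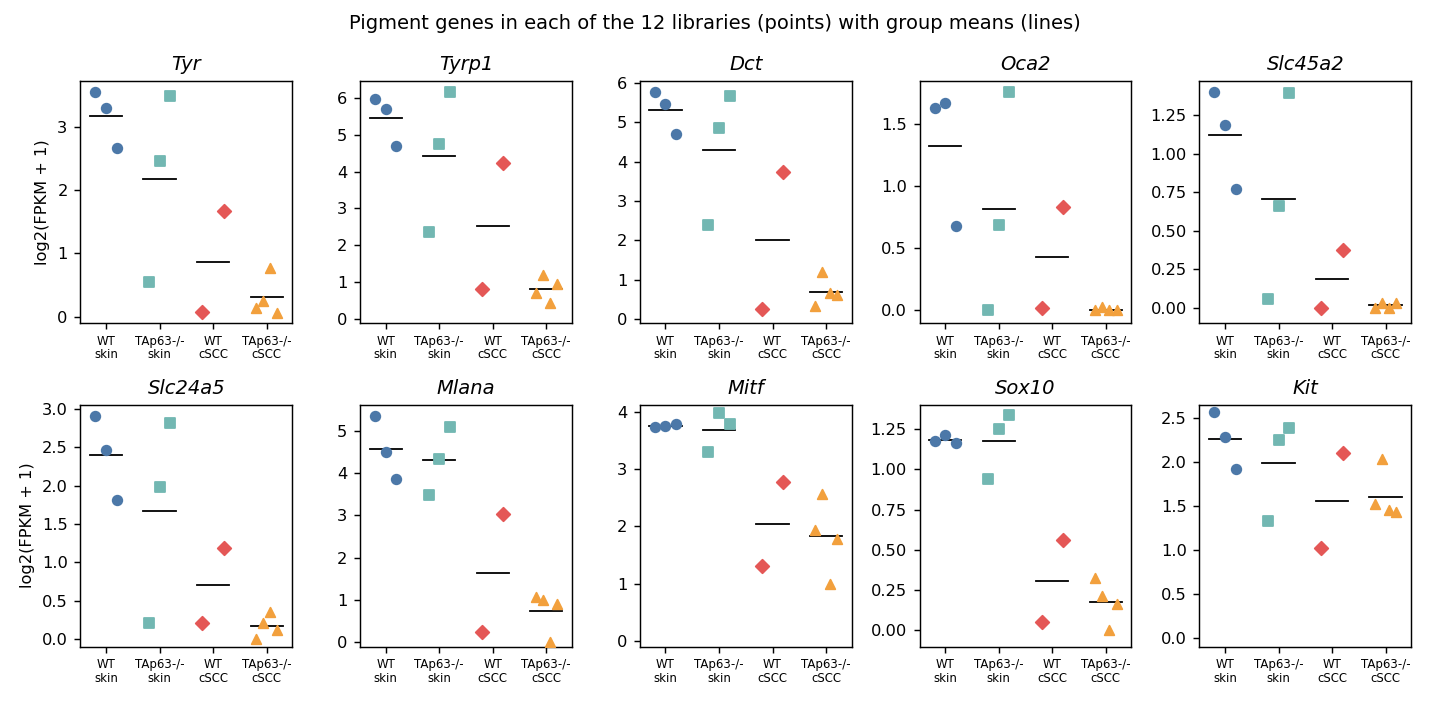
Level of each pigment gene as log2(FPKM + 1), 1 point per library, by group, with 3 libraries in each skin group, 2 of WT cSCC and 4 of TAp63-/- cSCC; lines are group means and each panel has its own axis. WT cSCC replicate 2 is the highest tumour and TAp63-/- skin replicate 1 the lowest skin library in every panel, although for Kit (3.30 against 3.08 FPKM) and Mitf (5.85 against 4.94 FPKM) that tumour lies close to the next, and all 6 tumours lie below all 6 skin libraries for Mlana, Mitf and Sox10.

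Tyr (chromosome 7, 87427405 to 87493411, mm10, as are the positions below) encodes tyrosinase. WT skin held 10.7, 8.84 and 5.29 FPKM and TAp63-/- skin 0.46, 4.51 and 10.2. The WT tumours held 0.0464 and 2.16 FPKM and the TAp63-/- tumours 0.102, 0.188, 0.692 and 0.0422. The tissues overlapped, since TAp63-/- skin replicate 1 lay below WT cSCC replicate 2 and TAp63-/- cSCC replicate 3. Tyr fell by 2.08 on the log2 scale (SE 0.47, limma adjusted p = 0.00573).

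Tyrp1 (chromosome 4, 80834123 to 80851719) encodes a melanosomal protein of the tyrosinase family. Its levels were 61.6, 51.0 and 24.9 FPKM in WT skin and 4.14, 25.8 and 70.9 in TAp63-/- skin. In cSCC they were 0.756 and 17.9 FPKM for WT and 0.64, 1.29, 0.367 and 0.95 for TAp63-/-. Tyrp1 was thus near 1 FPKM in every tumour but WT cSCC replicate 2, which exceeded TAp63-/- skin replicate 1. The log2 change was -3.26 (SE 0.69, limma adjusted p = 0.00411).

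Dct (chromosome 14, 118012792 to 118052246), whose enzyme rearranges dopachrome and whose upstream sequence holds both matches shown earlier, had the lowest estimate of the 10. WT skin held 53.6, 43.3 and 25.2 FPKM and TAp63-/- skin 4.22, 27.8 and 49.3. The WT tumours held 0.196 and 12.4 FPKM and the TAp63-/- tumours 0.247, 1.30, 0.576 and 0.531. Again the overlap came from WT cSCC replicate 2 against TAp63-/- skin replicate 1. The log2 change was -3.46 (SE 0.65, limma adjusted p = 0.00218), a fold of 10.98 on the FPKM + 1 scale.

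The transporter genes were lower expressed than the enzymes. Slc24a5 (chromosome 2, 125068124 to 125088677), a potassium-dependent sodium/calcium exchanger, held 6.51, 4.52 and 2.51 FPKM in WT skin and 0.154, 2.97 and 6.02 in TAp63-/- skin. WT tumours had 0.156 and 1.28 FPKM of Slc24a5, and TAp63-/- tumours 0, 0.155, 0.276 and 0.0805. Slc24a5 fell by 1.60 on the log2 scale (SE 0.40, limma adjusted p = 0.0104), with TAp63-/- skin replicate 1 inside the tumour range.

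Oca2 (chromosome 7, 56239760 to 56536517), the pink-eyed dilution gene and a melanosomal anion channel component, held 2.10, 2.18 and 0.597 FPKM in WT skin and 0, 0.614 and 2.38 in TAp63-/- skin. WT tumours had 0.0147 and 0.784 FPKM of Oca2, and TAp63-/- tumours 0, 0.0185, 0 and 0. Its fall was near the threshold (log2 change -0.85, SE 0.31, limma adjusted p = 0.0495) and did not pass without WT cSCC replicate 1, where it was -0.65 (adjusted p = 0.204). Leaving out any other library apart from WT cSCC replicate 2, WT skin replicate 3 or TAp63-/- skin replicate 1 also ended this call, at adjusted p = 0.0626 to 0.110.

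Slc45a2 (chromosome 15, 11000721 to 11029233), a proton-coupled sugar transporter family member, held 1.65, 1.28 and 0.707 FPKM in WT skin, 0.0394, 0.584 and 1.63 in TAp63-/- skin, and at most 0.298 in any tumour. Slc45a2 fell by 0.81 (SE 0.23, limma adjusted p = 0.0171). Without WT cSCC replicate 1, Slc45a2 was at -0.72 (adjusted p = 0.0752) and Slc24a5 at -1.35 (adjusted p = 0.0588). At levels under 1 FPKM these log2 changes understate a ratio, since 1 was added to every value.

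Mlana (chromosome 19, 29697921 to 29708448) encodes MART-1, a melanosome protein that binds the fibril protein PMEL and is a clinical marker of melanocytes. WT skin held 39.7, 21.4 and 13.5 FPKM and TAp63-/- skin 10.1, 19.3 and 33.0. The WT tumours held 0.184 and 7.13 FPKM and the TAp63-/- tumours 1.11, 1.01, 0 and 0.878. Here all 6 tumours lay below all 6 skin libraries. The log2 change was -3.24 (SE 0.49, limma adjusted p = 0.000546).

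Mitf (chromosome 6, 97807058 to 98021349), the master regulator of the melanocyte lineage, varied less than 2-fold among the skin libraries. WT skin held 12.3, 12.4 and 12.8 FPKM and TAp63-/- skin 8.85, 14.7 and 12.8. The WT tumours held 1.49 and 5.85 FPKM and the TAp63-/- tumours 2.84, 4.94, 0.991 and 2.44. The tissues did not overlap, and Mitf fell by 1.79 (SE 0.30, limma adjusted p = 0.00119). Mitf is transcribed from several starts that also serve other cell types, such as mast cells and macrophages, and the table sums them into 1 value per gene. Of 7 macrophage genes 3 fell, beside 18.4% of all genes, and the 7 summed to 365 to 879 FPKM in skin and 176 to 1018 in cSCC. The part of these cells in the Mitf value was not tested.

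Sox10 (chromosome 15, 79154913 to 79164490), a neural crest factor of melanocytes and Schwann cells, held 1.26, 1.32 and 1.24 FPKM in WT skin and 0.918, 1.38 and 1.52 in TAp63-/- skin. WT tumours had 0.0377 and 0.478 FPKM of Sox10, and TAp63-/- tumours 0.254, 0.162, 0 and 0.118. No tumour reached a skin library (log2 change -0.94, SE 0.15, limma adjusted p = 0.000802). Schwann cell genes moved with it: 7 of 8 fell and their summed level was 100.8 to 165 FPKM in skin and 16.3 to 54.7 in cSCC. Over all genes 18.4% fell. S100b and Cdh19, the latter named for this limit alone, passed the filter on low values only through skin. Mbp, a myelin protein, changed by -2.10 and S100b, a calcium-binding protein, by -1.05, while Mal rose by 1.56. The part of Schwann cells in the Sox10 value was not tested.

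Kit (chromosome 5, 75574916 to 75656722) overlapped between the tissues. WT skin held 4.96, 3.86 and 2.80 FPKM and TAp63-/- skin 1.51, 3.77 and 4.25. The tumours held 1.03 and 3.30 FPKM for WT and 1.87, 3.08, 1.73 and 1.70 for TAp63-/-. The log2 change was -0.54 (SE 0.26, 95% interval -1.11 to 0.02, limma adjusted p = 0.121). Without WT cSCC replicate 2 it was -0.81. Without TAp63-/- skin replicate 1 it was -0.71 (limma adjusted p = 0.0436), beside 16.0% of all genes lower in that fit. Both libraries were picked on the levels of these genes, so the larger differences follow from that choice and support nothing.

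Kit is also the receptor by which mast cells survive, so the mast cell list was read beside it. Its 12 genes summed to 104 to 225 FPKM in skin and 23.3 to 361 in cSCC, with 2 of them at 0 in TAp63-/- cSCC replicate 1 and none at 0 elsewhere. The highest sum was in TAp63-/- cSCC replicate 2, which also had the highest Kit and Mitf of the TAp63-/- tumours. Of the 12 genes, 4 fell (Mrgprb2 by 1.14, Mcpt4 by 1.94, Cpa3 by 1.56 and Cma1 by 1.5) and 2 rose (Hdc by 1.52, Il1rl1 by 1.16). Over all genes 18.4% fell and 19.1% rose. Mrgprb2 passed the filter on low values only through skin, and Hdc only through tumours. The part of mast cells in the Kit value was not tested.

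Without WT cSCC replicate 2 and TAp63-/- skin replicate 1 all 10 genes were lower in cSCC, with Dct at -4.81, Tyrp1 at -4.63, Mlana at -4.14 and Kit at -0.98 (adjusted p = 0.00834). In that fit 15.5% of all genes were lower, and the members' values are a description only, since the libraries left out were picked on them. Over all genes tested, with all 12 libraries, all 6 tumours lay below all 6 skin libraries in 10.9%, and among the pigment genes in Mlana, Mitf and Sox10, 3 of 10. Of the 10, 5 had passed the filter on low values only through skin, Sox10 among them, so that count is a description. The order of the genes shifted as well. Tyrp1 or Dct had the highest level per length in 5 of 6 skin libraries, whereas Mitf was the highest, with Kit next, in 4 of 6 tumours. In WT cSCC replicate 2 the order was Tyrp1, Dct and Mlana, as in 3 of 6 skin libraries.

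With sex as a covariate, also chosen after seeing the data, 0 of the 10 genes passed in this comparison (limma), although the estimates were close to those without it. Calls over all genes tested dropped too, to 1458 of 14752 from 5531 without the covariate, and genes called lower to 5.08%. Dct was at -3.90 (adjusted p = 0.0955), Mlana at -2.86 (adjusted p = 0.099) and Mitf at -1.65 (adjusted p = 0.123). That fit rests on TAp63-/- cSCC replicate 1, the 1 tumour read as male. Its enzymes summed to 0.99 FPKM, below the 1.52 to 2.78 of the TAp63-/- tumours read as female. The WT tumours, also read as female, held 0.998 and 32.5 FPKM. For Mlana (1.11 FPKM) and Sox10 (0.254 FPKM) the male tumour was instead the highest of the TAp63-/- tumours. Values of 1 male tumour do not separate sex from tissue.

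**Figure D2:**
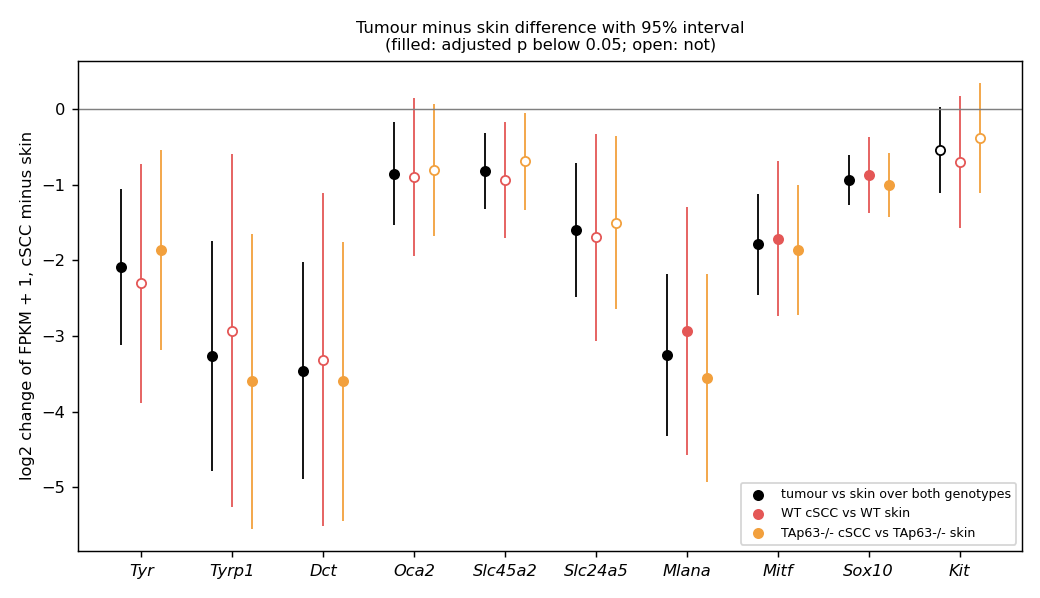
Log2 change of FPKM + 1 from skin to cSCC for each pigment gene over both genotypes (black), in WT (red) and in TAp63-/- (orange), with 95% intervals from limma; filled points have an adjusted p below 0.05. Over both genotypes the estimates run from -3.46 for Dct to -0.54 for Kit, the only black point that is open.

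Within each genotype the same direction was measured, and the WT and TAp63-/- comparisons share the estimate of spread but no library. Sex coincided fully with tissue in WT, so they cannot be told apart there. In WT, 6.77% of all genes were lower and 3 pigment genes fell, Mlana (-2.93, adjusted p = 0.0296), Mitf (-1.71, adjusted p = 0.0386) and Sox10 (-0.87, adjusted p = 0.0333). Sox10 passed the filter on low values only through skin, so that count is a description. Dct (-3.32, SE 1.0, adjusted p = 0.0556) and Tyrp1 (-2.93, SE 1.06, adjusted p = 0.0984) did not pass, with a large estimate and a large error each. Leaving out WT cSCC replicate 1, WT skin replicate 1 or WT skin replicate 2 left 0 calls, and leaving out WT skin replicate 3 or TAp63-/- skin replicate 2 left 1. Over all genes the share called lower in those fits was 1.65%, 4.34%, 3.26%, 3.26% and 5.69%, in the same order. Without WT cSCC replicate 2 there were 6 (6.59% of all genes), without TAp63-/- skin replicate 1 there were 7 (7.31%), and without both 8 (7.17%), the libraries left out being those picked on these genes. The limma fit on the WT libraries alone called 0, beside 7.84% of all genes lower. In it Sox10 was at adjusted p = 0.0508, Mitf at 0.0629 and Mlana at 0.0922.

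In TAp63-/-, 14.2% of all genes were lower and 6 pigment genes fell. Of those 6, Tyr and Sox10 passed the filter on low values only through skin, so that count is a description. Dct changed by -3.60 (adjusted p = 0.00989), Tyrp1 by -3.59 (adjusted p = 0.0131), Mlana by -3.55 (adjusted p = 0.00209), Mitf by -1.87 (adjusted p = 0.00565) and Sox10 by -1.0 (adjusted p = 0.00346). Tyr was at -1.86 (adjusted p = 0.0409) and lost its call when any 1 of the TAp63-/- tumours, any 1 WT skin library or TAp63-/- skin replicate 2 or 3 was left out (adjusted p = 0.0517 to 0.157), and in the fit on the TAp63-/- libraries alone (adjusted p = 0.0717). Tyrp1 did so without TAp63-/- skin replicate 3 (-2.72, adjusted p = 0.0525). Without TAp63-/- skin replicate 1, Slc24a5 (-2.23) and Slc45a2 (-1.01) were called as well, both having passed the filter only through skin. In that fit 10.1% of all genes were lower. The library left out was picked on these same genes, so the added calls are a description only.

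Loss of TAp63 was then compared within each tissue. In skin, limma called 0 of the 10 pigment genes, 0 had an unadjusted p below 0.05, beside 0.0203% of all genes called and 5.0% at the unadjusted p. The estimates ran from -1.03 for Tyrp1 (95% interval -3.41 to 1.35) to -0.0069 for Sox10 (-0.32 to 0.31). TAp63-/- skin replicate 1 stood apart most in the enzymes and transporters. As a share of the mean of the other 5 skin libraries, that library held 5.82% of Tyr, 8.84% of Tyrp1, 10.6% of Dct, 3.43% of Slc24a5 and 3.37% of Slc45a2. It held 39.9% of Mlana, 38.4% of Kit, 67.9% of Mitf and 68.3% of Sox10, so its regulators were nearer to the other skin libraries than its enzymes. Without it Tyrp1 differed between the genotypes by 0.0025 and Dct by -0.068.

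Among the tumours limma called 0 of the 10 genes, 0 had an unadjusted p below 0.05, beside 0% of all genes called and 2.84% at the unadjusted p. Estimates for TAp63-/- against WT ran from -1.70 for Tyrp1 (95% interval -3.74 to 0.35) to 0.05 for Kit (-0.85 to 0.94). Without WT cSCC replicate 2, Tyrp1 was at 0.019 and Kit at 0.59. Without WT cSCC replicate 1, Kit was at -0.50, so its sign depended on which WT tumour was used.

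The tumour-skin difference itself was compared between the genotypes as an interaction. Limma called 0 of the 10 genes, 0 had an unadjusted p below 0.05, beside 0.0271% of all genes called and 3.01% at the unadjusted p. The estimates ran from -0.67 for Tyrp1 (SE 1.38) to 0.44 for Tyr (SE 0.94).

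The follicular setting of the pigment genes was read from 15 hair shaft and inner root sheath genes, whose mean log2(FPKM + 1) varied within both tissues. It was 7.58, 6.07 and 3.26 in WT skin, 0.79, 4.81 and 6.24 in TAp63-/- skin. WT tumours had means of 0.87 and 7.11, and TAp63-/- tumours 0.78, 4.14, 0.70 and 3.52. The library highest in pigment genes among the tumours and the lowest among skin libraries were the extremes of this list too. None of the 15 passed between tumour and skin with limma, and 3 had an unadjusted p below 0.05, as had 47.0% of all genes. Still, 14 of the 15 estimates were below 0, with a median log2 change of -0.96 against 0.07 over all genes tested. Of 6 hair matrix genes 3 fell, Shh by 2.36, Dlx3 by 1.97 and Hoxc13 by 1.80, beside 18.4% of all genes. Shh passed the filter on low values only through skin.

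Each tumour was set beside the skin library nearest to it in the hair list. The summed level of Tyr, Tyrp1 and Dct was lower in all 6 tumours, by 3.87 times in WT cSCC replicate 2 (32.5 against 126 FPKM) to 36.4 times in TAp63-/- cSCC replicate 4 (1.52 against 55.4 FPKM). For 3 tumours the nearest was TAp63-/- skin replicate 1, so these are not 6 separate comparisons. No such count was made over all genes, so all 6 being lower cannot be judged against a background and is a description only. TAp63-/- skin replicate 1, with a hair mean as low as that of 3 tumours, held 8.82 FPKM of the enzymes and 10.1 of Mlana. Those 3 tumours held 0.99 to 1.64 FPKM of the enzymes and 0 to 1.11 of Mlana. With the hair mean as a covariate 17.6% of all genes were lower in cSCC, and of the pigment genes 8 of 10, among them Dct (-2.72), Mlana (-2.71), Tyrp1 (-2.48) and Mitf (-1.53). Of those 8, Tyr, Slc45a2, Slc24a5 and Sox10 passed the filter on low values only through skin, so that count is a description. Oca2 was at -0.57 (adjusted p = 0.0812) and Kit at -0.27 (adjusted p = 0.192).

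**Figure D3:**
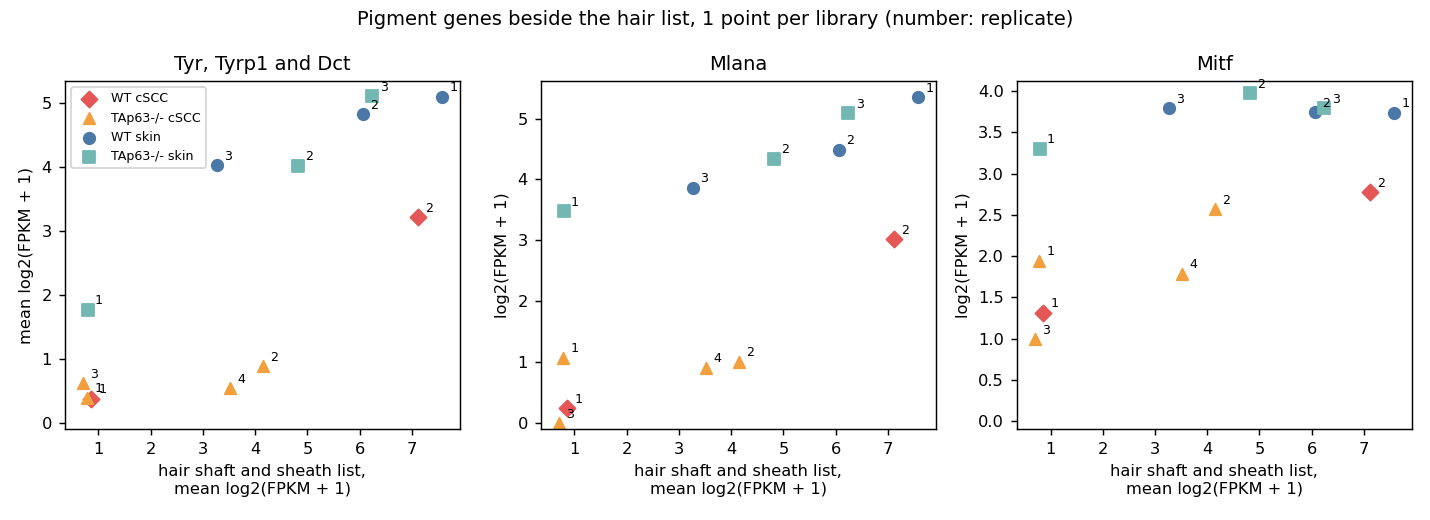
Pigment genes on the vertical axis, as the mean log2(FPKM + 1) of Tyr, Tyrp1 and Dct and as log2(FPKM + 1) of Mlana and of Mitf. The horizontal axis is the mean log2(FPKM + 1) of 15 hair shaft and sheath genes, with 1 point per library and its replicate number. At similar hair levels the tumour points lie below the skin points, for example an enzyme mean of 0.546 against 4.02 in TAp63-/- cSCC replicate 4 and WT skin replicate 3.

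Pigment genes beyond the 10 were read from 3 lists with 43 genes in the table, 39 of them tested, and these did not move as a block. In cSCC 14 were lower, 6 higher and 19 did not pass, beside 18.4% lower and 19.1% higher over all genes. Among 23 melanosome genes, 5 fell and 3 rose. Pmel, the fibril protein on which melanin is laid down, changed by -2.68, Trpm1, a melanocyte cation channel, by -2.25, Rab27a, which tethers melanosomes for transport, by -0.91, and Lyst, the lysosome size regulator of beige mice, by -0.46. The fifth, Gpr143, the melanosomal receptor of ocular albinism, lies outside the rule for named genes and changed by -0.79, having passed the filter only through skin.

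The 3 that rose serve many cell types. Slc7a11, the cystine importer of the subtle gray locus, rose by 2.23, Tpcn2, an endolysosomal channel, by 1.48, and Hps1, of the complex that sorts melanosome cargo, by 0.47. Genes of general organelle sorting and transport such as Hps3, Hps4, Hps5, Ap3b1, Dtnbp1 and Myo5a, named after their values were seen, did not pass, with estimates from -0.0085 to 0.27.

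Of 8 signalling genes tested, 5 fell and 0 rose. Kitl, the ligand of Kit made by keratinocytes and fibroblasts, fell by 1.49 (SE 0.29, limma adjusted p = 0.00261). Ednrb, the endothelin receptor of melanoblasts, changed by -1.31, Edn1, an endothelin secreted by keratinocytes, by -0.99, and Mgrn1, the ubiquitin ligase of the mahoganoid coat, by -0.62. The fifth, Corin, a dermal papilla protease that modifies agouti signalling, lies outside the rule for named genes and changed by -0.87, having passed the filter only through skin.

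Of 8 other transcription factors of the lineage tested, 4 fell and 3 rose. Zeb2, which acts in melanocyte differentiation, fell by 1.78, Lef1, a Wnt effector that partners Mitf, by 1.59, Irf4, which acts with Mitf at Tyr, by 1.25, and Tfeb, a lysosomal relative of Mitf, by 0.72. Snai2, known for melanoblast migration and for keratinocyte migration, rose by 1.37, Tfe3, another relative of Mitf, by 1.21, and Tfap2a, also a keratinocyte factor, by 0.90. Several of these factors are made by keratinocytes or immune cells, and the cells they came from were not tested.

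**Figure D4:**
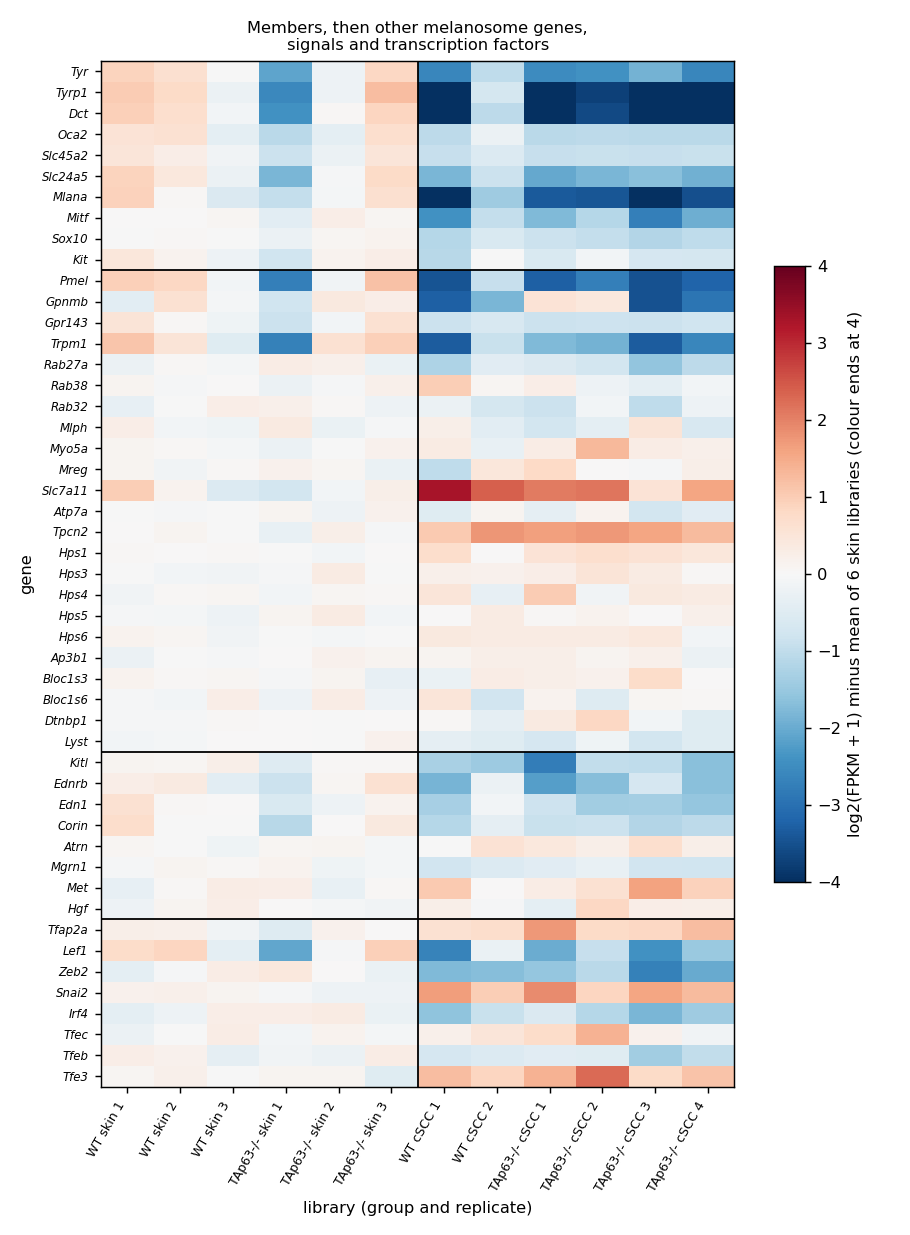
Each row is a tested pigmentation gene, the 10 members first, then other melanosome genes, signals and transcription factors; columns are the 12 libraries and colour is log2(FPKM + 1) minus the mean of the 6 skin libraries, clipped at 4. Pmel (-2.68) and Trpm1 (-2.25) follow the enzymes, while Slc7a11 (2.23) and Tpcn2 (1.48) are higher in cSCC.

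The genes outside the 10 whose profile was most like the mean profile of Tyr, Tyrp1 and Dct were found over all 12 libraries, as the mean absolute difference of log2(FPKM + 1) after each profile was taken relative to its own mean. Pmel was nearest at 0.195, then Ptgds, a prostaglandin D synthase, at 0.353, Lhx2, a hair follicle stem cell factor, at 0.515, Fam26e at 0.54 and Trpm1 at 0.566. Pmel held 27.6, 25.0 and 12.8 FPKM in WT skin and 1.24, 12.4 and 32.1 in TAp63-/- skin. WT tumours had 0.331 and 6.73 FPKM of Pmel, and TAp63-/- tumours 0.523, 1.21, 0.328 and 0.614, with the same high tumour and low skin library as the 10 genes. These likenesses describe 12 libraries of 2 tissues and carry no test.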

How the data were processed

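Total RNA of 12 mouse tissue pieces was sequenced after Ambion miRVANA extraction and Illumina TruSeq preparation, per the labels. The submitters' processing notes name TopHat2 2.0, Cufflinks 2.0 and the build mm10. FPKM, as deposited, is a unit inferred from Cufflinks and the values. Quantile normalization by the authors was inferred from the shared distribution and is not recorded in the notes, so depth is unknown and no counting error is given. Normalization of this kind can shrink differences between libraries whose RNA differs in makeup.

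The table held 37924 entries for 34303 symbols; entries of the 272 symbols with more than 1 were summed. Genes that reached 1 FPKM in 2 or more libraries (14752) were fitted as log2(FPKM + 1) by limma 3.58.1 (R 4.3.3), letting the variance follow mean expression. P-values were two-sided and adjusted by the Benjamini-Hochberg method over all genes tested, with 0.05 as the threshold. Adding 1 FPKM understates changes of low genes. The main fits used all 12 libraries, except the genotype comparisons, which used the 6 of 1 tissue. The procedure was tested on simulated data. Each title carries its own identifier, whose meaning the labels leave unstated, so it is not known here whether the samples are separate animals; p-values measure the spread between these samples.

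Members and lists were chosen with earlier results of these data known. Named genes are all members, the up to 4 called genes with the smallest p per list and direction, and the 5 non-members most like the enzymes, predicted gene models left out; others are said to be chosen after their values were seen. Some genes that this rule names are not reported here. Gene positions are those of the deposited table with the start counted from 1, and promoter sequences are from RefSeq. Alternatives covered the pseudocount, filter, rescaling, array weights, libraries in the fit, duplicate symbols, a hair covariate, leaving out libraries and, added after seeing the data, sex and a pair of libraries left out together.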

Additional observations from a re-analysis of the deposited data

Results flagged for a closer look

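In 10 groups of 4 libraries, 1 for each pigment gene in TAp63-/- cSCC, the highest and lowest library was compared with the others by Dixon's ratio, which chance exceeds in about 1 of 20 groups. Oca2 was higher in TAp63-/- cSCC replicate 2 (0.0185 FPKM) than in the other 3 tumours, which were all listed at 0. With the other 3 at 0, any value above 0 in the remaining tumour gives the highest ratio possible, so the zeros alone fix this entry, and the level itself is near 0. Kit was higher in the same tumour (3.08 FPKM) than in the others (1.70 to 1.87). That tumour also had the highest summed mast cell list of the 12 libraries (361 FPKM), and the part of mast cells in the value was not tested.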

How the results depend on the processing

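In the 3 comparisons of tumour with skin no pigment gene changed sign under any alternative run (227, 227 and 237 values). The 9 genes lower over both genotypes became 0 with sex as a covariate. With 1 skin library or TAp63-/- tumour left out they became 8 to 10. Without WT cSCC replicate 1, which left 1 WT tumour, the estimates of Oca2, Slc45a2 and Slc24a5 shrank to -0.65, -0.72 and -1.35. Under the stricter filter 6 were lower, since Oca2, Slc45a2 and Sox10 were no longer tested, and without the filter 8. The 3 genes lower in WT became 0 at a pseudocount of 0.1 (6.24% of all genes lower) and 1 without the filter (3.76%). They became 0 in the fit on WT libraries alone (7.84%) and 6 with the hair covariate (6.60%). With 1 skin library or TAp63-/- tumour left out they became 0 to 7 (3.26% to 8.09%). The 6 lower in TAp63-/- became 0 with sex as a covariate (7.23% of all genes lower) and 4 to 8 with 1 library left out (10.1% to 14.8%). Over both genotypes 5.08% of all genes were lower with the sex covariate, 18.2% under the stricter filter and 12.7% without the filter. With 1 skin library or TAp63-/- tumour left out, that share was 15.3% to 19.4%.

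Signs turned in the genotype comparisons within a tissue, where limma called no pigment gene in any fit run. The interaction was followed as a count, which was 0 throughout. In skin, Mitf and Sox10 were at 0.024 and 0.017 with array weights, and Mlana, Mitf, Sox10 and Kit at 0.24, 0.035, 0.074 and 0.037 with the hair covariate. With 1 library left out the skin range was -1.90 to 0.0025 for Tyrp1, -1.30 to 0.0048 for Slc24a5, -0.66 to 0.15 for Mlana, -0.21 to 0.12 for Mitf, -0.086 to 0.11 for Sox10 and -0.47 to 0.062 for Kit. Between tumours Kit was at -0.011 with median-of-ratios scaling and -0.035 with array weights, and with 1 library left out at -0.50 to 0.59, with Tyrp1 at -3.41 to 0.019. The cause of these shifts was not tested.

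No paired analysis was possible because the labels give the libraries no shared replicate numbers. Dropping a WT tumour leaves 1, which was assumed to vary like the other groups. Unknown depth and low levels of the transporters and of Sox10 limit these comparisons. So does tissue being joined to age, exposure and nearly to sex, wholly so in WT.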
